A study of Mus musculus with 2 samples.

Results

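The mouse Gimap genes encode GTPases of immunity-associated proteins, and the 8 genes with the symbols Gimap1, Gimap3, Gimap4, Gimap5, Gimap6, Gimap7, Gimap8 and Gimap9 were followed here in activated regulatory T cells. They were chosen by name, as the rows of the gene and transcript tables whose GENCODE M21 symbol is one of these. They are 8 of 55536 genes in the table, and 8 of its 22028 protein-coding genes. All 8 were measured in both libraries, and all passed the filter of a summed count of 10 or more used for the comparison of libraries.

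The samples are polyadenylated RNA of activated regulatory T cells, which are CD4 T cells that express Foxp3 and hold immune responses in check. The donor was an adult male mouse, 4 months old, of the strain named Foxp3CreERT2 x Rosa26YFP, in which Foxp3 drives a Cre recombinase that tamoxifen activates and Rosa26 carries a YFP reporter. The labels trace these primary cells to a hematopoietic cell of bone marrow, and do not state whether tamoxifen was given, how the cells were sorted or what activated them. The data are technical replicates 1 and 2 of biological replicate 1 (called library 1 and library 2 below), a single group with no other condition, and no p-value here refers to animals.

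Gimap proteins share a guanine nucleotide-binding domain of the AIG1 type, which opens with a P-loop, the stretch that holds the phosphates of the nucleotide. Several are anchored in intracellular membranes, and the family is known mostly from lymphocytes, where members affect the survival of T and B cells. In mice and in the BB rat, loss of Gimap5 depletes T cells, and in mice loss of Gimap1 depletes mature T and B cells.

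The depth was 15076048 estimated gene reads in library 1 and 14635787 in library 2. The cell type label was checked against markers. All 4 regulatory T cell markers (Foxp3, Il2ra, Ctla4, Ikzf2) and all 4 T cell markers (Cd3e, Cd4, Lck, Trac) were at 10 TPM or more in both libraries, with Foxp3 at 23.8 and 20.9 TPM and Trac at 2729 and 2761 TPM. TPM is a level per length of transcript, scaled to the same total in each library. Of the cytotoxic T cell markers, Cd8a stood at 1.43 and 0.790 TPM and Cd8b1 at 9.94 and 14.8 TPM. None of 3 natural killer, 4 myeloid and 5 endothelial markers reached 10 TPM. In libraries 1 and 2 the natural killer markers summed to 1.63 and 2.15 TPM, the myeloid markers to 1.36 and 3.60 TPM, and the endothelial markers to 1.05 and 0.490 TPM. Ncr1 and Tek had no reads in either library. The B cell markers Cd79a and Ms4a1 stood at 1.26 and 1.70 TPM and at 0.670 and 0.390 TPM. The summed level of the 8 Gimap genes was 3917 and 4264 TPM. These markers of B cells, natural killer cells, myeloid cells and endothelium were near 0 beside it, which does not give the share of such cells. Cd8b1 was not near 0 beside Foxp3, and how many cells of other types the sample held was not tested.

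The sequence that defines the family was read from the genome for each member. For each gene 1 transcript was used, chosen for the longest coding sequence and not for its level. Its reading frame was searched for codons of a P-loop, spelled as glycine, any 4 residues, glycine, lysine and then serine or threonine. The search found 1 P-loop in 7 members and 3 in Gimap8. The windows of 50 bases around them, as long as 1 read of these libraries, are shown because they tell which members a read can separate; capitals mark the 24 bases of the P-loop codons.
Gimap1: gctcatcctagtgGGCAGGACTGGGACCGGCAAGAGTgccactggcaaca
Gimap3: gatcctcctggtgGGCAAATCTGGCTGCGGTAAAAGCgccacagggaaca
Gimap4: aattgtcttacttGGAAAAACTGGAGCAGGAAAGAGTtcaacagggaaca
Gimap5: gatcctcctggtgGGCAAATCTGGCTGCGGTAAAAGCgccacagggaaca
Gimap6: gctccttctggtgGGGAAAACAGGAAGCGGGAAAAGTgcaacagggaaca
Gimap7: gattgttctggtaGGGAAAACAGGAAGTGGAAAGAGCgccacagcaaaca
Gimap8 P-loop 1: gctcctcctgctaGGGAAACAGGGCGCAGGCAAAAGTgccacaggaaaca
Gimap8 P-loop 2: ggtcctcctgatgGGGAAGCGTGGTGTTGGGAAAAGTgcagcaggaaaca
Gimap8 P-loop 3: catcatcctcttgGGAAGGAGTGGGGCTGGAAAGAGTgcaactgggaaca
Gimap9: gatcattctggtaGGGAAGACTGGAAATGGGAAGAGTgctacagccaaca
The genome build is mm10 and the transcripts are those of GENCODE M21. Each window lies in coding sequence and is written on the strand of its gene. Those on the plus strand are chr6:48742539-48742588 in Gimap1, chr6:48690408-48690457 in Gimap4, chr6:48752581-48752630 in Gimap5, chr6:48723511-48723560 in Gimap7 and chr6:48677510-48677559 in Gimap9. The Gimap8 windows, also on the plus strand, are chr6:48650243-48650292, chr6:48656106-48656155 and chr6:48658733-48658782. Those on the minus strand are chr6:48765874-48765923 in Gimap3 and chr6:48702737-48702786 in Gimap6.

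Over the 45 pairs of windows, the number of differing bases ran from 0 to 20 with a median of 15. Gimap3 and Gimap5 were the pair with 0 differences, so their windows are the same 50 bases. The next closest pair, Gimap7 and Gimap9, differed at 9 of the 50 bases. Gimap8 differs from the other members in size as well, with 688 codons over 5 coding exons in Gimap8-202. That transcript took 18.6% and 28.8% of the gene's TPM, and Gimap8-201, whose coding sequence was not used, took 63.4% and 62.6%. The other 7 coding sequences hold 291 to 328 codons in 1 to 3 coding exons, and those of Gimap7 and Gimap9 lie in a single exon.

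All 8 genes lie on mouse chromosome 6 between 48647234 and 48770851 of mm10, a span of 124 kb. Along the chromosome they run Gimap8, Gimap9, Gimap4, Gimap6, Gimap7, Gimap1, Gimap5 and Gimap3. Gimap6 and Gimap3 lie on the minus strand and the other 6 on the plus strand.

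Every Gimap gene was expressed well above the typical gene of these cells. The median level of the 8 was 289 TPM in library 1 and 299 TPM in library 2 (294 ± 7.11, mean and SD of the 2 libraries). The median of the 10171 protein-coding genes at 1 TPM or more in both libraries was 17.7 and 18.5 TPM (18.1 ± 0.601). Of the 8 members, 7 were at 100 TPM or more in both libraries, as were 1157 of all 22028 protein-coding genes (5.25%). Together the members took 0.392% and 0.426% of TPM and 0.508% and 0.545% of estimated gene reads. In bulk RNA, fewer cells of a type and less RNA per cell cannot be told apart, so these levels are averages over whatever cells were in the sample. The SDs describe technical libraries of 1 animal, and the intervals below are 95% exact Poisson intervals that cover counting error only.

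The levels were uneven within the cluster. Gimap4, Gimap3 and Gimap6 together made up 75.2 ± 0.951% of the members' summed TPM, with 34.4 ± 0.952%, 22.0 ± 0.983% and 18.9 ± 0.921% each. Gimap8 made up 2.05 ± 0.236%, and Gimap4 stood 18.7 times above it in library 1 and 15.2 times in library 2. The order from high to low was Gimap4, Gimap3, Gimap6, Gimap7, Gimap1, Gimap9, Gimap5 and Gimap8. In 6 of the 7 steps of this order the libraries' values of neighbours did not overlap. Gimap3 in library 1 and Gimap6 in library 2 came closest, both at 833 TPM when rounded. The exception was Gimap9 and Gimap5, with Gimap9 higher in library 1 (ratio 1.08) and lower in library 2 (ratio 0.933).

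**Figure D1:**
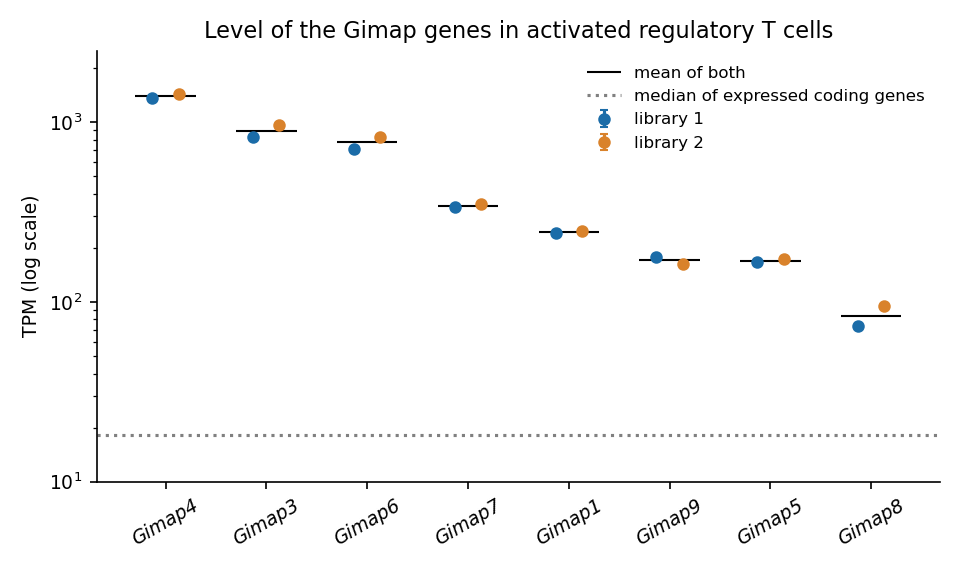
Level of each Gimap gene in TPM on a log scale, with library 1 in blue and library 2 in orange, bars for the 95% Poisson interval (smaller than most points), and a black line for the mean. The members run from 1405 TPM for Gimap4 to 84.0 TPM for Gimap8, all above the dotted line at 18.1 TPM that marks the median expressed protein-coding gene.

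Gimap1 and Gimap5 were named above because their loss depletes lymphocytes, and Gimap1 stood higher than Gimap5 in both libraries. Gimap1 (ENSMUSG00000090019.5; chr6:48739054-48743795, plus strand) had 3895 and 3819 estimated reads in libraries 1 and 2. Its level was 243 TPM (interval 235 to 250.4) in library 1 and 249 TPM (241 to 257) in library 2, and these intervals overlap. Gimap1 ranked at 481 of the 10171 expressed protein-coding genes by mean TPM (246 ± 4.32). Gimap5 (ENSMUSG00000043505.8; chr6:48746197-48754210, plus strand), which has also been tied to the kinase Gsk3b in mouse T cells, had 1936 and 1861 estimated reads. Its level was 166 TPM (159 to 174) in library 1 and 173 TPM (166 to 181) in library 2, again with overlapping intervals. Its mean of 169.7 ± 5.12 TPM ranked at 703.

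Gimap3, the close paralogue of Gimap5 in mice, stood 5.02 and 5.57 times higher than Gimap5 in TPM. Gimap3 (ENSMUSG00000039264.9; chr6:48764464-48770851, minus strand) had 21231 and 23281 estimated reads. Its level was 833 TPM (822 to 844) in library 1 and 966 TPM (954 to 978) in library 2, with intervals that lie apart. Its mean of 899 ± 94.0 TPM ranked at 129.

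Gimap4, which in rodents has been linked to the timing of T cell death, had the highest level of the members in both libraries. Gimap4 (ENSMUSG00000054435.16; chr6:48684549-48692060, plus strand) had 25608 and 25245 estimated reads. Its level was 1373 TPM (1356 to 1390.0) in library 1 and 1437 TPM (1419.6 to 1455) in library 2. Its mean of 1405 ± 45.4 TPM ranked at 84 of the expressed protein-coding genes. Gimap6 binds Gabarapl2, an ATG8 protein of the autophagosome. Gimap6 (ENSMUSG00000047867.11; chr6:48701582-48708225, minus strand) had 13664 and 15172 estimated reads. Its level was 714 TPM (702 to 726) in library 1 and 833 TPM (819 to 846) in library 2, apart beyond counting error, and its mean was 773 ± 84.0 TPM at rank 148.

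The remaining 3 members spread over the lower levels, with Gimap7 above Gimap1 and Gimap5, Gimap9 level with Gimap5, and Gimap8 below all. Gimap7 (ENSMUSG00000043931.10; chr6:48718621-48724636, plus strand), whose human counterpart dimerises and stimulates GTP hydrolysis, had 4916 and 4891 estimated reads. Its level was 336 TPM (326 to 345) in library 1 and 349.8 TPM (340.0 to 359.7) in library 2, with overlapping intervals and a mean of 343 ± 9.89 TPM at rank 334. Gimap9 (ENSMUSG00000051124.6; chr6:48676129-48679114, plus strand) had 2610 and 2238 estimated reads. Its level was 179 TPM (172 to 186) in library 1 and 162 TPM (155 to 168) in library 2, with a mean of 170.2 ± 12.1 TPM at rank 698. Gimap8 (ENSMUSG00000064262.7; chr6:48647234-48660875, plus strand), the large member with 3 P-loops, had 2738 and 3249 estimated reads. Its level was 73.6 TPM (70.9 to 76.4) in library 1 and 94.4 TPM (91.1 to 97.7) in library 2. The mean of 84.0 ± 14.7 TPM ranked at 1498, which is the 85.3rd percentile of expressed protein-coding genes. By reads alone, which are not scaled by transcript length, Gimap8 exceeded Gimap9 and Gimap5 in both libraries.

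Most members were represented by protein-coding transcripts, and Gimap5 was the exception. The annotation gives the 8 genes 30 transcripts, of which 21 are protein-coding. By TPM, the transcript with the largest share was protein-coding in 7 of 8 genes, and by estimated reads in 8 of 8. The shares of TPM were those deposited, averaged here over the libraries.

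For Gimap5 the transcript of largest TPM share was Gimap5-202, a processed transcript of 464 bases, at 37.4% in library 1 and 43.0% in library 2. Gimap5-203, another processed transcript of 606 bases, had 30.9% and 26.4%. The coding transcript Gimap5-201, of 1953 bases, had 29.3% and 27.8% of TPM, but 59.3% and 57.8% of the gene's estimated reads. Counted over coding transcripts alone, Gimap5 fell to 48.6 and 48.2 TPM (48.4 ± 0.255) and became the lowest member, below Gimap8 at 84.0 TPM. On that scale Gimap3 stood 18.6 ± 2.04 times above Gimap5. The mean level of Gimap5 was thus 169.7 TPM over all its transcripts and 48.4 TPM over the coding one.

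The other members kept most of their level in coding transcripts. Gimap3, Gimap8 and Gimap9 have coding transcripts only, and Gimap6 kept 99.4% in both libraries. Gimap4 kept 91.9% and 92.7%, with 8.14% and 7.32% in Gimap4-206, which is annotated as a target of nonsense-mediated decay. Gimap7 kept 90.3% and 90.4%, with 9.71% and 9.57% in Gimap7-202, a retained intron. Gimap1 kept 81.0% and 83.7%, and the rest lay in 3 retained-intron transcripts.

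Within the coding transcripts, most genes had a single leader. Gimap7-201 took 89.5 ± 1.27% of its gene's TPM, Gimap6-201 88.9 ± 0.198%, Gimap9-201 78.5 ± 0.587%, Gimap3-202 78.1 ± 1.63% and Gimap4-202 69.6 ± 0.467%. The division was less steady between libraries in Gimap8 and Gimap1. Gimap8-202 took 18.6% in library 1 and 28.8% in library 2, while Gimap8-203 took 18.0% and 8.68%. Gimap1-201 took 58.0% and 68.3%, while Gimap1-205 took 15.3% and 7.29%. The leading transcript of each gene was the same in both libraries.

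**Figure D2:**
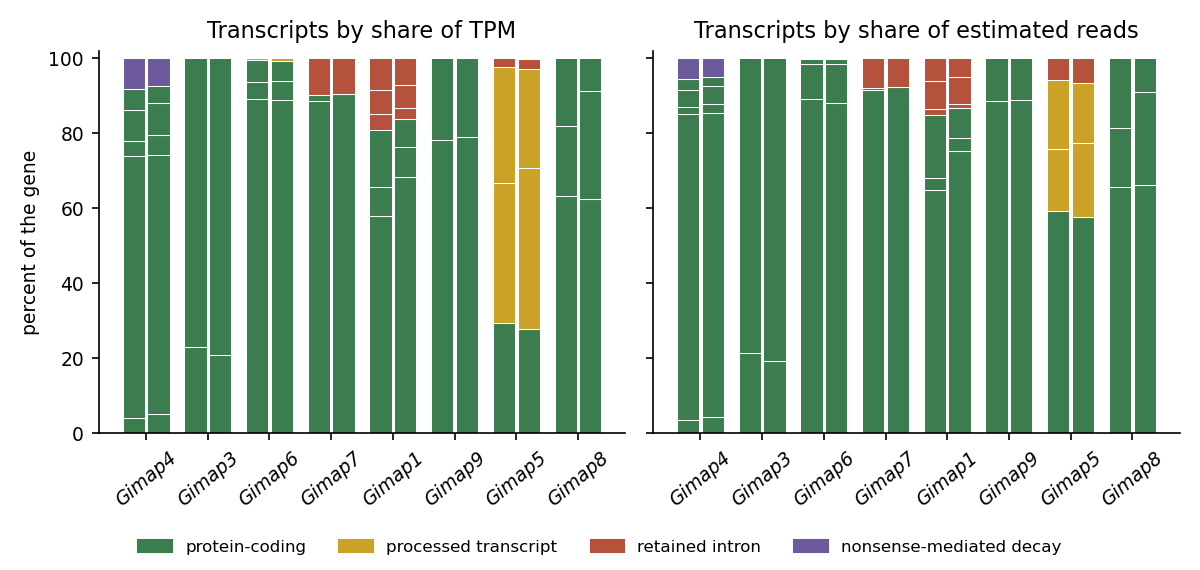
Share of each gene's TPM (left panel) and of its estimated reads (right panel), in percent, taken by its annotated transcripts, with library 1 as the left bar and library 2 as the right bar of each pair; colours give the transcript type and white lines separate transcripts. Gimap5 is the gene with most of its TPM in processed transcripts, yet 59.3% and 57.8% of its reads lie in the coding transcript.

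Gimap3 and Gimap5 were the pair of members most alike in sequence. Their coding sequences were identical at 89.9% of 898 aligned bases. Among the 20 other pairs that do not involve Gimap8, identity ran from 54.6% to 64.9%, with Gimap7 and Gimap9 the highest. The longest run of coding sequence shared without a mismatch was 140 bases for Gimap3 and Gimap5, against 9 to 17 bases in the other 27 pairs of members. That run is shown because it is longer than a read, and its capitals mark the first 50 bases, the length of 1 read.
Gimap3 and Gimap5 shared run: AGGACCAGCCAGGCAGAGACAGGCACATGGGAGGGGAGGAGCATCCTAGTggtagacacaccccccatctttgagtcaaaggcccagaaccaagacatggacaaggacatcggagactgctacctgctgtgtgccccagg
It lies at chr6:48765681-48765820 on the minus strand in Gimap3 and at chr6:48752684-48752823 on the plus strand in Gimap5.

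Of all stretches of 50 bases in annotated Gimap3 transcripts, 7.52% also occur in Gimap5 transcripts, and 4.53% of those of Gimap5 occur in Gimap3. The deposited posterior SD of the count, in reads, states how uncertain the authors' model was in assigning them. For Gimap3 it was 9.96 and 10.4 reads beside 21231 and 23281, and for Gimap5 11.3 and 12.1 reads beside 1936 and 1861. These SDs are small beside the differences between both genes. For Gimap4, Gimap6, Gimap8 and Gimap9 it was 0, and for Gimap7 0.390 and 0.170 reads. Gimap4, Gimap8 and Gimap9 share no stretch of 50 bases with another gene on either strand.

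Gimap1 had the largest model SD of the members, 24.8 and 24.2 reads, and overlaps other genes. Its exons share 1107 of 3073 bases with the exons of Gimap1os on the opposite strand. Gimap1os had 1899 and 1877 estimated reads (90.9 and 95.3 TPM), and Gimap1 stood 2.67 and 2.61 times above it in TPM. The labels do not state whether the libraries keep strand. If they do not, strand cannot tell reads of the overlap apart between Gimap1 and Gimap1os. Gimap1os had a model SD of 23.4 and 22.7 reads, close to that of Gimap1. Gm44226 and 4833403J16Rik, noncoding genes inside the cluster, overlap in extent on opposite strands. Both had a model SD of 7.00 reads in library 1 and 5.92 in library 2. Whether the model assigned reads without regard to strand was not tested. How much of the uncertainty of both levels these SDs cover was not tested. Gm28053, a gene on the same strand that runs across Gimap7, Gimap1 and Gimap5, shares exon bases with all 3. They amount to 6.44% of the exon bases of Gimap1, 3.69% of Gimap5 and 3.48% of Gimap7. Gm28053 had 34.0 and 35.0 TPM, from 170.1 and 173.4 estimated reads with a model SD of 13.1 and 12.8.

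The genes around and between the members were mostly lower. Between the outermost members the annotation has 5 other genes. Gimap1os (93.1 ± 3.09 TPM) was the only one of the 5 above any member: it had 90.9 and 95.3 TPM, where Gimap8 had 73.6 and 94.4 TPM. Gm28053 averaged 34.5 ± 0.651 TPM, the noncoding genes 4833403J16Rik and Gm44226 averaged 12.8 ± 1.20 and 11.1 ± 0.424 TPM, and the pseudogene Gm44262 had no reads, where 3 reads would be 0.749 and 0.794 TPM. The 3 nearest protein-coding genes on each side were all below the lowest member. On the Gimap8 side AI854703, 13.5 kb away, averaged 1.56 ± 0.891 TPM, Zfp775 averaged 4.93 ± 0.438 TPM, and Gm44965 was at 0 and 0.620 TPM. On the Gimap3 side Tmem176b, 63.0 kb away, averaged 21.3 ± 1.12 TPM and Tmem176a 14.8 ± 3.69 TPM, while Aoc1 had no reads in either library, where 3 reads would be 0.126 and 0.134 TPM. The highest of these 6, Tmem176b, lies near the median expressed protein-coding gene.

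**Figure D3:**
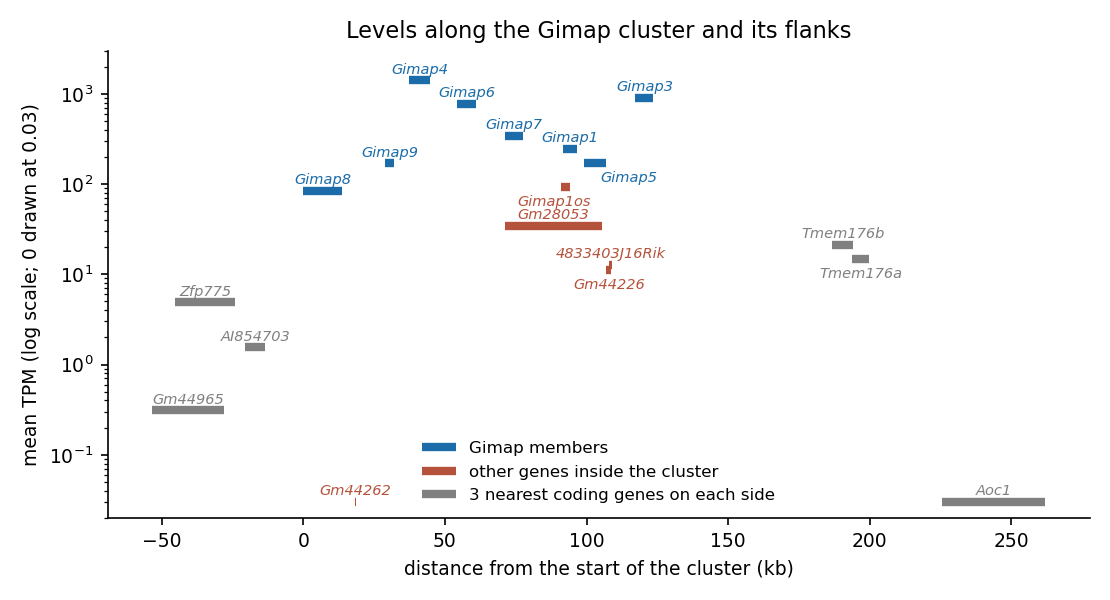
Mean TPM of the 2 libraries on a log scale against distance from the start of the cluster in kb, with a bar for the extent of each gene (genes at 0 are drawn at the bottom). The 8 members (blue) lie at 84.0 to 1405 TPM, the 5 other genes inside the cluster (red) at 0 to 93.1 TPM, and the 3 nearest protein-coding genes on each side (grey) at 0 to 21.3 TPM.

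Reads of the members were then compared between the technical libraries, which share 1 biological sample. The estimated reads of each gene entered an exact binomial test (two-sided) against library 1's 50.7% share of all gene reads, with p-values adjusted by Benjamini-Hochberg over 17271 genes. Of the 8 members, 4 passed at 0.05, where 4198 of all genes tested (24.3%) did. The members are deeply sequenced, and among the 1484 genes with at least as many summed reads as the lowest member, 3797, the share past the threshold was 54.2%. The members' share, 4 of 8, is no larger than that of other genes of like depth.

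Gimap3, Gimap6 and Gimap8 were lower in library 1 than in library 2, as were 12.7% of all genes tested. The log2 ratio of reads, library 1 over library 2, was -0.18 for Gimap3 (adjusted p = 3.54e-35), -0.19 for Gimap6 (adjusted p = 1.12e-27) and -0.29 for Gimap8 (adjusted p = 6.86e-13) in the exact binomial test. Gimap9 was higher in library 1, at a log2 ratio of 0.18 (adjusted p = 0.000225, the same exact test), as were 11.6% of all genes tested. Gimap1, Gimap4, Gimap5 and Gimap7 had log2 ratios of -0.01, -0.02, 0.01 and -0.04 and did not pass, with adjusted p from 0.212 for Gimap4 to 0.915 for Gimap5. TPM ratios lean slightly more toward library 2 than these read ratios, as the median expressed gene had 17.7 TPM in library 1 and 18.5 TPM in library 2, and the TPM intervals of Gimap4 lie apart where its reads did not pass. The test compares these libraries and no condition.

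**Figure D4:**
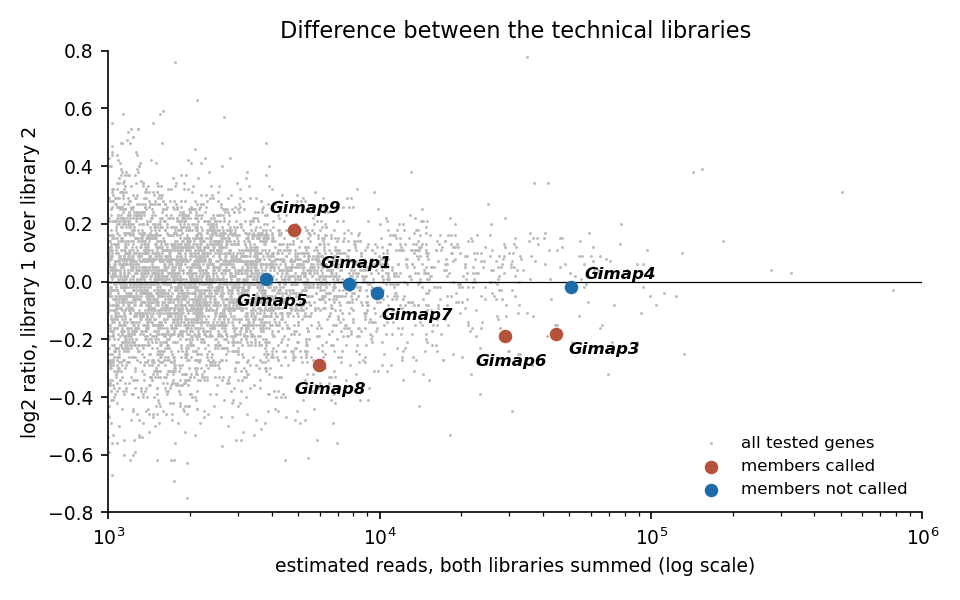
Log2 ratio of estimated reads, library 1 over library 2, against the summed estimated reads of both libraries on a log scale, for genes with 1000 summed reads or more; grey points are all tested genes within the axes. Gimap3, Gimap6, Gimap8 and Gimap9 (red) passed the exact binomial test with log2 ratios of -0.18, -0.19, -0.29 and 0.18, and the other 4 members (blue) lie between -0.04 and 0.01.

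The other deposited count, a whole number per gene on the older annotation GENCODE M4, gave the members far fewer reads. Gimap4 had 2271 and 2265, Gimap6 1904 and 1914, and Gimap3 1531 and 1536. Gimap7 had 1496 and 1499, Gimap1 1205 and 1201, Gimap9 1137 and 1009, Gimap8 1111 and 1312, and Gimap5 440 and 415. These are 14.5% and 14.0% of the members' estimated reads, where the ratio over all matched genes was 25.5% and 26.0%. Among the members the ratio was lowest in the 3 with the most estimated reads, at 7.21% and 6.60% for Gimap3, 8.87% and 8.97% for Gimap4 and 13.9% and 12.6% for Gimap6. It was highest for Gimap9, at 43.6% and 45.1%. It did not follow depth throughout, since Gimap5, with the fewest estimated reads, had 22.7% and 22.3%.

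Over all genes the median ratio fell with depth. It was 44.1% and 44.4% in genes of 100 to 1000 estimated reads, 23.9% and 24.3% in genes of 3000 to 10000, and 7.38% and 7.23% in genes of 10000 to 30000. On whole-number counts the spread among members narrowed, and Gimap6 stood above Gimap3. Of the members only Gimap8 passed the test between libraries there, where 1092 of 10978 genes tested (9.95%) did. The log2 ratios of Gimap3 and Gimap6 were both -0.01, while Gimap9 kept a log2 ratio of 0.17 that did not pass. The counter and filters behind these whole numbers are not stated in the labels or files, and what lowers them in abundant genes was not tested.

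**Figure D5:**
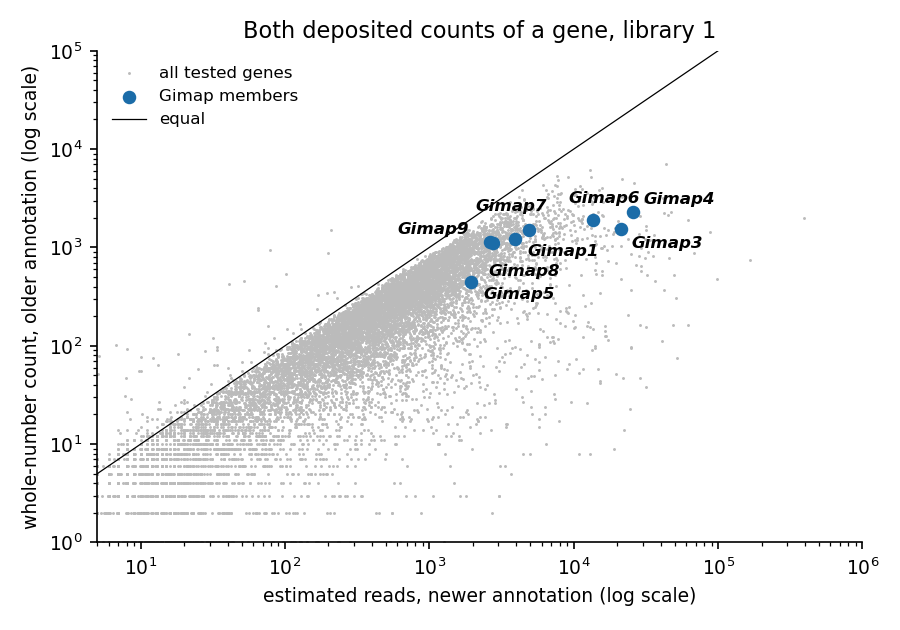
Whole-number count on the older annotation against estimated reads on the newer annotation in library 1, both on log scales, with all tested genes in grey (those with no whole-number count are not drawn) and a line where both would be equal. The 8 members lie below the line, and those with the most estimated reads, Gimap4 and Gimap3, have 8.87% and 7.21% of them as whole-number counts.

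Genes whose products are tied to Gimap proteins were then read from the same tables. All 5 genes of the ATG8 family, to which the Gimap6 partner Gabarapl2 belongs, were at 1 TPM or more in both libraries, as were 46.2% of all protein-coding genes. Gabarapl2 had 185 and 178 TPM, below Gimap6 in both libraries. Map1lc3b was the highest of the family at 375 and 379 TPM and Map1lc3a the lowest at 1.06 and 1.47 TPM. Of the 5, only Gabarapl1 differed between libraries, at 3.37 and 6.65 TPM, where 24.3% of all genes tested did. Gsk3b, the kinase tied to Gimap5, had 38.7 and 43.5 TPM, and its relative Gsk3a had 6.75 and 8.25 TPM.

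Members of the Bcl2 family, which regulate cell death and some of which have been reported to interact with mouse Gimap3, Gimap4 and Gimap5, all had lower gene TPM than those 3 Gimap genes. For Gimap5 this holds over all its transcripts, and its coding transcript alone, at 48.4 TPM, lies below the gene TPM of Bcl2 (118), Bax (97.6) and Mcl1 (61.4). All 7 listed were at 1 TPM or more in both libraries, with a median of 39.6 and 40.9 TPM. Bcl2, which protects cells from death, was the highest at 110.4 and 125 TPM, and Bak1, which promotes it, the lowest at 7.38 and 4.19 TPM. Of the 7, 6 differed between libraries, where 24.3% of all genes tested and 54.2% of those as deep as the members did. Most of the 7 lie below that depth, such as Bak1 at 163.9 and 98.80 estimated reads. Bax, another death-promoting member, differed most among those above 10 TPM, at 71.4 and 124 TPM (log2 ratio -0.75), a larger library difference than that of any Gimap gene.

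The guanylate-binding proteins and the immunity-related GTPases, many of which interferon induces, were expressed at lower medians than the Gimap genes. Of 11 guanylate-binding protein genes 10 were at 1 TPM or more in both libraries, with a median of 70.5 and 67.5 TPM. Gbp7 was the highest at 194 and 205 TPM and Gbp11 the lowest at 0.850 and 2.06 TPM. Of 8 immunity-related GTPase genes 7 were at 1 TPM or more, with a median of 213 and 237 TPM. Igtp was the highest at 312 and 356 TPM and Irgc1 the lowest at 0 and 0.330 TPM. The summed levels were 821 and 863 TPM for the guanylate-binding proteins and 1546 and 1696 TPM for the immunity-related GTPases, against 3917 and 4264 TPM for the 8 Gimap genes. The library differences passed the test for 3 of 11 guanylate-binding protein genes, 6 of 8 immunity-related GTPase genes and 4 of 8 Gimap genes. Irgc1, with 0 and 2 reads, was not tested. The share was 24.3% over all genes tested and 54.2% over those with at least 3797 summed reads. Some genes of the other families lie far below that depth, such as Gbp11 at 27.91 and 63.77 estimated reads.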

How the data were processed

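The authors deposited, per the file headers, a gene and a transcript table for each library, made with GENCODE M21 on mm10, as the file list deposited with each sample states. The tool is not given in the sources used. The expected count is the authors' estimate of reads per gene or transcript and need not be whole. The deposited TPM and FPKM scale it by effective length, and the deposited isoform percent divides a gene's TPM among its transcripts. The deposited score called the posterior SD of the count gives, in reads, the uncertainty of the authors' model. A further deposited table holds a whole-number count per gene on GENCODE M4, of which 22195 identifiers matched.

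Symbols, coordinates (1-based), exons and sequences came from GENCODE M21 and its mm10 genome. Length minus effective length corresponds to reads of 50 bases. Rows naming no gene held 0.142% of reads in library 1 and 0.186% in library 2, and entered neither library sizes nor tests. Expected counts were first rounded to whole numbers, and log2 ratios add 0.5 to each count. The exact binomial test (2 times the smaller tail) was tested on simulated libraries with 200 changed genes. Intervals are exact Poisson limits of the estimated reads, carried to TPM, and cover counting error only; a gene with no reads is given the TPM of 3 reads. The libraries share 1 biological sample, so no animal-level error can be given.

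The genes named were all 8 members, every annotated gene between the outermost members, the 3 nearest protein-coding genes on each side, and the genes of 5 lists, always with the highest and lowest of a list. The B cell marker list is given by single genes, since not all of it is reported here. The members and lists were chosen with earlier results of these data known. Bax and Gabarapl1 were singled out within their lists after their values were seen. Alternatives used edgeR 4.0.16 (TMM sizes, and its exact test with dispersion set to 0.01) and size factors from DESeq2 1.42.0, in R 4.3.3. The rest ran in Python 3.11.15 with numpy 2.4.6, pandas 2.3.3, scipy 1.17.1 and Biopython 1.88, and matplotlib 3.10.9 drew the figures.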

Additional observations from a re-analysis of the deposited data

How the results depend on the processing

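Each library alone gave a median member level of 289 to 299 TPM and a summed level of 3917 to 4264 TPM. It put 6 to 8 of the 8 members in the same place of the order, gave the same 8 leading transcripts in each case, and placed the lowest member, Gimap8, at the 83.7 to 87.0 percentile (an alternative added after seeing the data). Over coding transcripts alone the median level was 256 TPM in place of 294 and the summed level 3779 TPM in place of 4090.2, with Gimap1 at 202, Gimap4 at 1297, Gimap5 at 48.4 and Gimap7 at 309.7 TPM. Of the 8 members, 5 kept their place by estimated reads, 2 by whole-number counts, 6 over coding transcripts and 8 by FPKM. The percentile of Gimap8 was 93.2 among all protein-coding genes, 87.8 with a minimum of 0.1 TPM and 81.4 with a minimum of 5 TPM, in place of 85.3.

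TMM sizes, DESeq2 size factors, no filter and a minimum summed count of 50 called the same 4 members. They called 3696 to 4233 genes in all, which is 12.4% (no filter) to 30.7% (minimum of 50) of the genes tested. On whole-number counts 1092 genes of 10978 (9.95%) and 1 member, Gimap8, were called, and the log2 ratios of Gimap3, Gimap6 and Gimap9 were -0.01, -0.01 and 0.17. Those counts hold a smaller share of the reads in deep genes, so this was not a like-for-like repeat of the test. edgeR's exact test at a dispersion of 0.01 called 492 of 17271 genes (2.85%) and 0 members, where the binomial test called 4 members. In edgeR's test 0 members had an unadjusted p under 0.05, and 2007 of all genes tested had one. A set dispersion adds spread beyond counting by construction. No result changed direction among those called. No paired analysis was possible because there is 1 group. The precision of each level is limited by 1 animal and 2 technical libraries, and by unknown strandedness for Gimap1.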
